A study of Mus musculus with 30 samples.

Results

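The 9 genes described here are the glucocorticoid receptor gene Nr3c1, the mineralocorticoid receptor gene Nr3c2 and 7 genes known to respond to these receptors: Fkbp5, Tsc22d3, Sgk1, Zbtb16, Mt1, Mt2 and Cebpd. They were taken by symbol from the 13575 genes of the deposited heart RNA table, and all 9 passed the filter on low values, which kept 13256 genes. Both receptors are hormone-bound transcription factors that wait in the cytoplasm in a complex with heat shock protein 90 and enter the nucleus when a corticosteroid binds. In mice the adrenal glucocorticoid is corticosterone, which rises towards the start of the night. Both receptors can bind it, and cardiomyocytes express both.

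The study asked what the circadian REV-ERB repressors do in the heart. RNA came from 3 heart libraries labelled CM-RevDKO and 3 labelled control. All were from hearts taken at 2 months of age and 10 hours after lights on (ZT10), with the atria trimmed. The labels name the control libraries RevFloxed, and for the ChIP hearts of the same series they give floxed Rev-erba and Rev-erbb alleles in both genotypes, with an aMHC-Cre transgene in the knockout. The alpha myosin heavy chain promoter drives Cre in cardiomyocytes, so other heart cells keep both genes. If the controls have no Cre, an effect of Cre and loss of the receptors cannot be told apart. The sources used here give neither the sex of the RNA hearts nor whether replicates are separate animals. The p-values set a group difference against the spread between these samples, which limma draws in part from genes of like level. That spread may not be the spread between animals. Corticosterone values were not used here, and RNA from ZT10 alone cannot tell a changed level from a changed timing.

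Library facts bear on what follows. The values were read as FPKM, that is, scaled to the length of the transcript and the size of the library, and sequencing depth is unknown. Gene-level values of Nr1d1, which encodes REV-ERBα, ran from 47.4 to 55.6 FPKM in hearts labelled CM-RevDKO, against 15.0 to 23.9 FPKM in those labelled control. Such values can include exons outside the deleted part and check nothing about the deletion, so every direction rests on the labels. The 7 cardiomyocyte markers summed to 24932 to 28012 FPKM in hearts labelled CM-RevDKO and 25181 to 27235 FPKM in those labelled control. CM-RevDKO replicate 1 stood apart in markers of other cells. Its 4 atrial markers summed to 662 FPKM, against 166 and 205 FPKM in the other two CM-RevDKO libraries and 62.2 to 113 FPKM in the controls; Bmp10 was listed at 0 in at least 1 library. Its 6 measured adipocyte markers summed to 1103 FPKM, against 806 and 593 FPKM in the other two and 697 to 822 FPKM in the controls, and its 6 measured macrophage markers to 272 FPKM, against 161 and 167 FPKM in the other two and 172 to 193 FPKM in the controls. Its 5 measured erythroid markers summed to 11003 FPKM, against 8867 and 8703 FPKM in the other two and 5010 to 9005 FPKM in the controls. The adipocyte sums were mostly Fabp4, at 1020, 759 and 581 FPKM in CM-RevDKO replicates 1, 2 and 3. Adipoq stood at 6.96, 4.88 and 1.35 FPKM there and at 1.05 to 1.06 FPKM in the controls. Plin1, Cfd, Cidec and Retn were likewise above every control in both replicates 1 and 2, and Retn was highest in replicate 2. The atrial sums were also separate between the groups, and so were those of 4 smooth muscle markers, 82.4 to 107 FPKM in hearts labelled CM-RevDKO and 54.4 to 72.3 FPKM in those labelled control. Of the marker genes tested for 10 cell types 1 passed the test, the pericyte marker Abcc9, which encodes an ATP-sensitive potassium channel subunit that cardiomyocytes also express. Abcc9 fell to 31.1 ± 2.11 FPKM in hearts labelled CM-RevDKO, against 50.2 ± 1.68 FPKM in those labelled control (SD, n = 3 each, log2 fold change -0.68, adjusted p = 0.0113).

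None of the 9 genes passed the test between the libraries labelled CM-RevDKO and control (0 of 9, limma with Benjamini-Hochberg adjustment over all tested genes, threshold 0.05). Across all 13256 genes 332 did, or 2.5%, with 167 higher and 165 lower. At an unadjusted p under 0.05 there were 3 of the 9, Nr3c1, Nr3c2 and Mt1, all lower, where the share over all genes was 16.6%. The same 3 genes were the ones whose groups did not overlap, and 10.5% of all genes were lower without overlap. The median log2 fold change was -0.33 over the 9 genes and 0.018 over all genes tested. Of the 9 fold changes 7 were negative, while 6144 of all 13256 were. Fold changes are on the scale of log2(FPKM + 1), which understates the change of low genes. In RNA from heart tissue of mixed cells, with the atria trimmed, fewer cells of a type and less RNA per cell cannot be told apart.

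**Figure D1:**
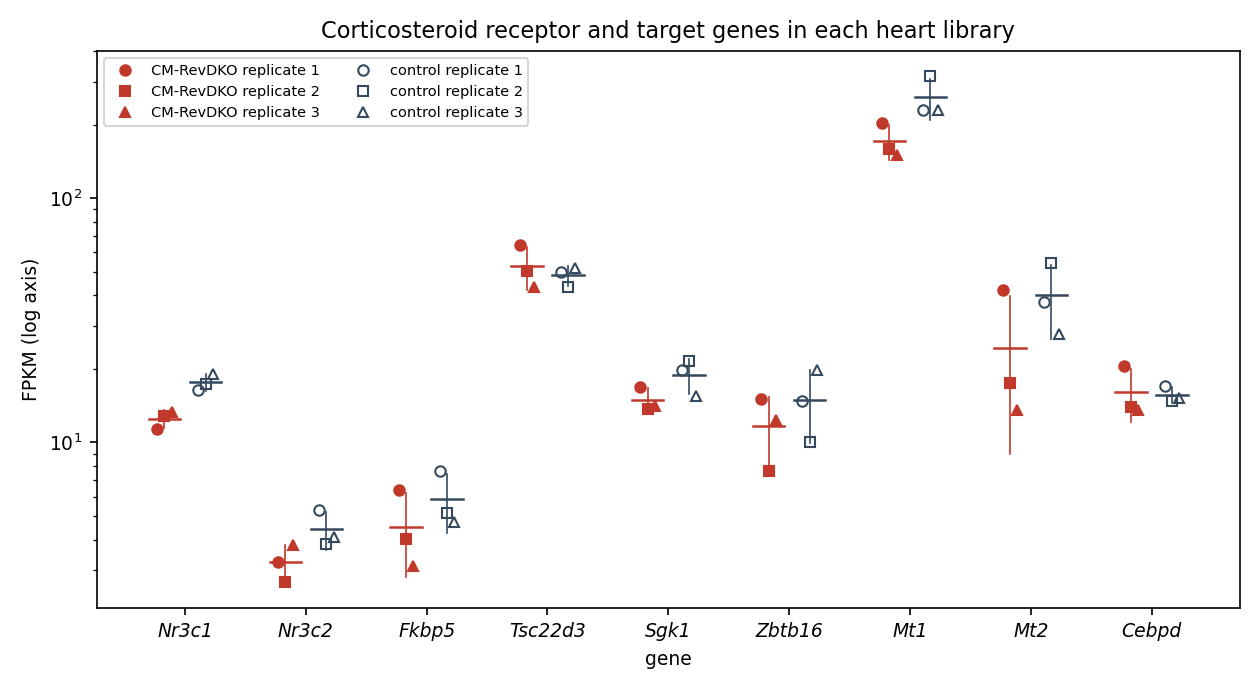
FPKM on a log axis for the 9 genes in each library, CM-RevDKO filled and control open, with the mean (horizontal line) and SD (vertical line) of each group of 3. The groups are separate for Nr3c1, Nr3c2 and Mt1 and overlap for the other 6 genes.

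The start regions of the genes were searched for the letters of known elements of the receptors, a metal sensor and the clock, in the promoter windows of RefSeq (GRCm38.p6, 250 bases before to 50 after each annotated start). Windows were present for Nr3c2, Fkbp5, Tsc22d3, Sgk1, Mt1 and Mt2, 13 in all. Nr3c1, Zbtb16 and Cebpd are named only. Every motif was searched on both strands. The palindromic glucocorticoid response element (AGAACA and TGTTCT with 3 bases between them), to which a receptor dimer binds, was in 3 of 32851 windows (0.00913%), and Sgk1 held 1 of these. It lies at chr10:21993694-21993722, 189 bases before one of 6 annotated Sgk1 starts, on the gene's plus strand, with the element in capitals:
Sgk1 response element: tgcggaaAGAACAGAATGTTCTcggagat

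A single hexamer AGAACA, which overlaps the full element, was in 19.0% of all windows and in 4 of the 13. Tsc22d3 held it once, in reverse, 185 bases before its most upstream start (chrX:140600690-140600719, minus strand), shown here because Tsc22d3 is a textbook target of the receptor:
Tsc22d3 hexamer: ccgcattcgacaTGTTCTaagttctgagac

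The metal response element, the site of the zinc sensor MTF1, was searched as TGCACNC (12.6% of all windows) and TGCGCNC (15.4%). Nr3c2 and Sgk1 held only TGCGCNC. Mt1 and Mt2 held both forms, and their sites are shown because the 2 metallothionein genes were compared with each other below. The 4 sites that lie before the transcript starts of these windows are given on the plus strand, with the element in capitals, Mt1 at chr8:94179055-94179083 and Mt2 at chr8:94172384-94172412, chr8:94172479-94172507 and chr8:94172557-94172585:
Mt1 site at 23 bases: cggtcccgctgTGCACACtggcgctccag
Mt2 site at 223 bases: agcatcgcctcTGCACCCggcccctcggg
Mt2 site at 128 bases: cgcagacccttTGCGCTCagctcctttgc
Mt2 site at 50 bases: ggggggagggcGTGTGCAggctctgtccc

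The last of these carries the element in reverse. The Mt1 site lies before the start used for its window but inside the Mt1 gene span given below (94178883 to 94180327). Its 23 bases are therefore counted from a start within that span. The ROR element (AANT followed by AGGTCA), at which REV-ERB and ROR receptors compete, was in 0.219% of all windows. The D-box TTATGTAA, bound by E4BP4, was in 0.938%. Neither string of letters was in the 13 windows. A match or its absence describes these letters in these windows alone.

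The receptor genes came first. Nr3c1 (ENSMUSG00000024431) stood at 11.3, 12.8 and 13.4 FPKM in CM-RevDKO replicates 1, 2 and 3 and at 16.4, 17.4 and 19.1 FPKM in control replicates 1, 2 and 3. Every CM-RevDKO library lay below every control library, and the spread was small in both groups (CV 8.50% and 7.87%, where the median gene had 13.4% and 13.1%). The means were 12.5 ± 1.06 and 17.6 ± 1.39 FPKM (SD, n = 3 each), so the CM-RevDKO mean was 70.8% of the control mean. The log2 fold change was -0.47 (SE 0.11, 95% interval -0.71 to -0.22). With the adjustment over all genes it did not pass the test (adjusted p = 0.0730), and over the 16 alternative settings the adjusted p ranged from 0.0515 to 0.522. The direction was the same in all 16, with a log2 fold change between -0.53 and -0.37.

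Nr3c2 (ENSMUSG00000031618), which in epithelia mediates the salt-retaining action of aldosterone, was the lowest of the 9 genes in both groups. It stood at 3.23, 2.67 and 3.80 FPKM in the CM-RevDKO libraries and 5.29, 3.86 and 4.09 FPKM in the controls. The groups were separate by a narrow margin, 3.80 FPKM in the highest CM-RevDKO library and 3.86 FPKM in the lowest control. The means were 3.24 ± 0.564 and 4.41 ± 0.767 FPKM (SD, n = 3 each; log2 fold change -0.35, SE 0.15, 95% interval -0.70 to -0.0027, adjusted p = 0.298). The ratio of the receptor genes within a library overlapped between the groups. Nr3c1 had 3.93 ± 0.739 times the FPKM of Nr3c2 in the CM-RevDKO libraries and 4.09 ± 0.863 times in the controls (SD, n = 3 each).

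The genes with the library pattern closest to that of Nr3c1 were picked out. Over the 7254 genes averaging 5 FPKM or more, the likeness measure was the mean absolute difference between centred log2(FPKM + 1) values over the 6 libraries. The closest were P4ha2, a subunit of the collagen prolyl 4-hydroxylase (0.022), Homer2, a scaffold protein (0.040), and Chd6, a chromatin remodeller (0.042). Their CM-RevDKO means were 70.1%, 67.1% and 65.7% of the control means, and none passed the test (adjusted p = 0.0919, 0.0732 and 0.0579). Likeness was taken over the same 6 libraries with the group difference included, so these values follow from the choice. Close matches over 6 values are to be found among 7254 genes and lend no support.

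Of the 7 target genes 5 had negative and 2 positive fold changes, and 0 passed the test. Fkbp5 encodes FKBP51, a co-chaperone that lowers the hormone affinity of the receptor and is itself induced by it, a short negative feedback loop. It stood at 6.39, 4.02 and 3.12 FPKM in the CM-RevDKO libraries and 7.65, 5.15 and 4.72 FPKM in the controls. The groups overlapped, and the CM-RevDKO libraries varied by about as much as the controls (means 4.51 ± 1.69 and 5.84 ± 1.58 FPKM, SD, n = 3 each). The log2 fold change was -0.33 (SE 0.24, 95% interval -0.90 to 0.24, adjusted p = 0.546). It was -0.56 without CM-RevDKO replicate 1, -0.14 without CM-RevDKO replicate 3 and -0.15 without control replicate 1.

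Tsc22d3 encodes GILZ, the glucocorticoid-induced leucine zipper that carries part of the hormone's anti-inflammatory action. It stood at 64.1, 50.1 and 43.4 FPKM in the CM-RevDKO libraries and 49.8, 43.3 and 51.8 FPKM in the controls. The highest value of all 6 was in CM-RevDKO replicate 1 and the other two lay within the control range. The log2 fold change was 0.10 (SE 0.15, 95% interval -0.25 to 0.46, adjusted p = 0.788), and without CM-RevDKO replicate 1 it was -0.046.

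Its paralog Tsc22d1, a member of the same leucine zipper family, did pass the test. It stood at 183, 155 and 172 FPKM in the CM-RevDKO libraries and at 77.0, 75.0 and 74.1 FPKM in the controls. The groups were far apart (log2 fold change 1.16, SE 0.091, adjusted p = 0.00130), and the call held in all 16 alternatives. Tsc22d2 and Tsc22d4 did not pass (log2 fold changes -0.022 and 0.23, adjusted p = 0.957 and 0.612). The difference between Tsc22d1 and Tsc22d3 was not itself tested.

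Sgk1 encodes a serine/threonine kinase that raises the surface level of sodium and other ion channels and is induced through both receptors. It stood at 16.9, 13.8 and 14.1 FPKM in the CM-RevDKO libraries and 19.8, 21.5 and 15.4 FPKM in the controls. All but 1 CM-RevDKO value lay below the lowest control. The means were 14.9 ± 1.72 and 18.9 ± 3.13 FPKM (SD, n = 3 each; log2 fold change -0.31, SE 0.14, 95% interval -0.65 to 0.021, adjusted p = 0.331). Its paralog Sgk3, with log2 fold change -0.11, did not pass either (adjusted p = 0.7097).

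Zbtb16 encodes the zinc finger repressor PLZF, which in several tissues is strongly induced by glucocorticoids. It stood at 14.99, 7.62 and 12.4 FPKM in the CM-RevDKO libraries and 14.8, 10.0 and 19.8 FPKM in the controls. Within either group the highest value was close to double the lowest, with CVs of 32.1% and 32.9%. The log2 fold change was -0.33 (SE 0.29, 95% interval -0.996 to 0.34, adjusted p = 0.622). It was -0.52 without CM-RevDKO replicate 1, -0.074 without CM-RevDKO replicate 2, -0.57 without control replicate 2 and -0.11 without control replicate 3.

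Cebpd encodes C/EBPδ, a transcription factor of the acute phase response that glucocorticoids and cytokines induce. It stood at 20.6, 13.9 and 13.6 FPKM in the CM-RevDKO libraries and 17.0, 14.8 and 15.1 FPKM in the controls. CM-RevDKO replicate 1 was above every control and the other two were below every control. The log2 fold change was 0.012 (SE 0.16, 95% interval -0.37 to 0.39, adjusted p = 0.985), and its sign turned with the scaling and with single libraries left out. Its relative Cebpb stood at means of 28.5 ± 8.83 and 33.5 ± 5.95 FPKM (SD, n = 3 each, adjusted p = 0.613).

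The metallothioneins Mt1 and Mt2, small proteins that bind zinc and copper, are induced by glucocorticoids as well as by metals. Their genes are neighbours on chromosome 8, with 5315 bases between the end of Mt2 and the start of Mt1 (Mt1 at 94178883 to 94180327, Mt2 at 94172618 to 94173567). As close copies they can share reads, so the split between them is uncertain. Mt1 was the most abundant of the 9, higher than 97.7% of tested genes by its mean over the 6 libraries.

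Mt1 stood at 202, 160 and 151 FPKM in the CM-RevDKO libraries and 229, 316 and 230 FPKM in the controls. Each CM-RevDKO library lay below each control, at means of 171 ± 27.6 and 258 ± 49.97 FPKM (SD, n = 3 each), and the CM-RevDKO mean was 66.2% of the control mean. The log2 fold change of -0.59 (SE 0.16, 95% interval -0.97 to -0.20) did not pass the test (adjusted p = 0.127, and 0.0651 to 0.303 over 16 alternatives).

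Mt2 varied most between libraries, at 42.0, 17.6 and 13.5 FPKM in the CM-RevDKO libraries and 37.6, 54.5 and 27.9 FPKM in the controls. CM-RevDKO replicate 1 lay inside the control range and the other two below it. The means were 24.4 ± 15.4 and 40.0 ± 13.5 FPKM (SD, n = 3 each; log2 fold change -0.80, SE 0.41, 95% interval -1.75 to 0.15, adjusted p = 0.379). With 1 library left out the log2 fold change of Mt2 ran from -1.27 without CM-RevDKO replicate 1 (adjusted p = 0.0874) to -0.48 without CM-RevDKO replicate 3 (adjusted p = 0.587), and it was -0.56 without control replicate 2 (adjusted p = 0.633). That of Mt1 ran from -0.72 without CM-RevDKO replicate 1 to -0.43 without control replicate 2. Mt1 had 4.81, 9.08 and 11.1 times the FPKM of Mt2 in CM-RevDKO replicates 1, 2 and 3, against 6.10, 5.80 and 8.24 times in the controls, ranges that overlap.

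Other genes of metal handling did not pass the test. Mtf1, the zinc sensor, stood at means of 3.99 ± 1.01 and 3.37 ± 1.07 FPKM, and Slc30a1, a zinc exporter that MTF1 induces, at 5.48 ± 0.991 and 4.83 ± 0.583 FPKM (SD, n = 3 each, adjusted p = 0.682 and 0.661). Mt3, the metallothionein best known from brain, stood at 3.08 ± 1.33 and 1.52 ± 0.894 FPKM (adjusted p = 0.300), a log2 fold change of 0.70 with the opposite sign to those of Mt1 and Mt2.

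**Figure D2:**
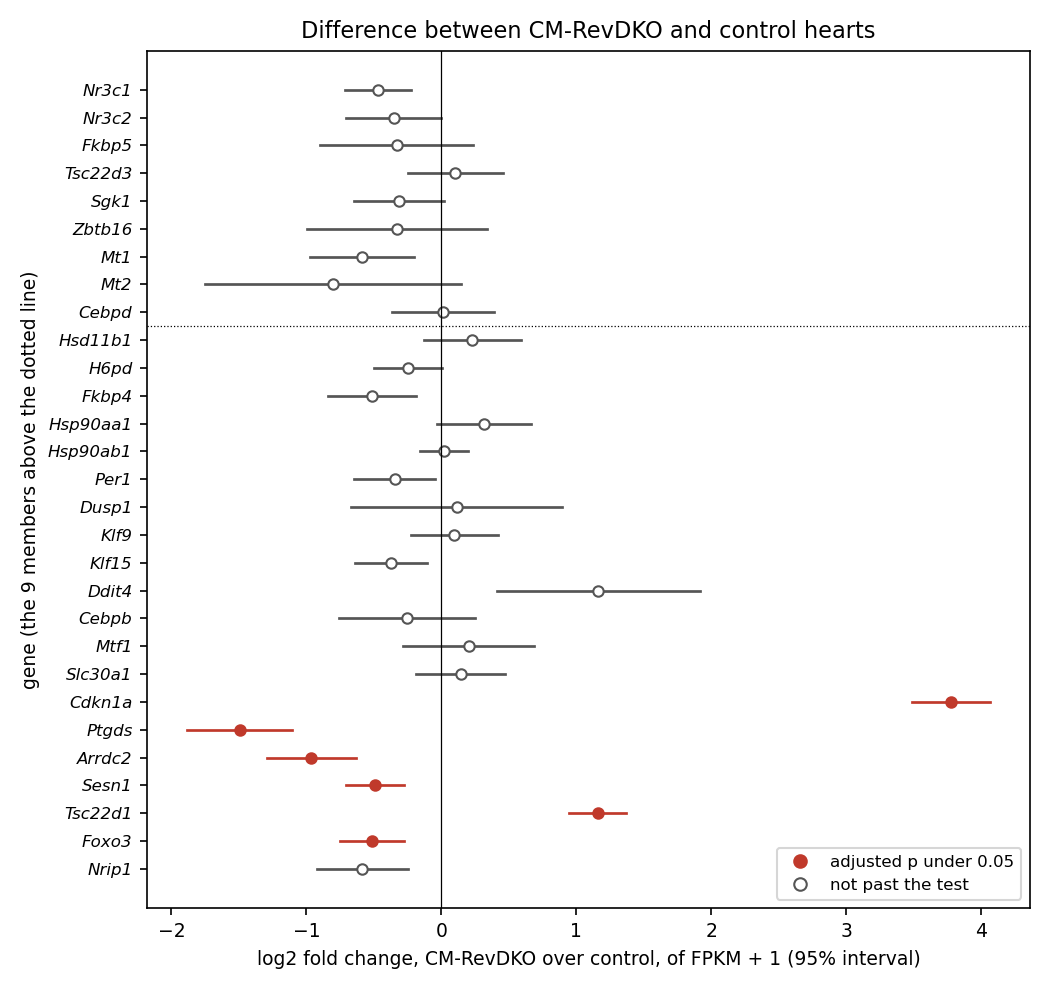
Log2 fold change of FPKM + 1, CM-RevDKO over control, with 95% intervals from limma, for the 9 genes (above the dotted line) and 20 further genes of the pathway. Filled points passed the test at an adjusted p under 0.05; none of the 9 did.

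By level, in FPKM, the order was much the same in both groups. In the CM-RevDKO libraries it ran Mt1, Tsc22d3, Mt2, Cebpd, Sgk1, Nr3c1, Zbtb16, Fkbp5 and Nr3c2, and in the controls Mt1, Tsc22d3, Mt2, Sgk1, Nr3c1, Cebpd, Zbtb16, Fkbp5 and Nr3c2. In the CM-RevDKO libraries 4 pairs of neighbours had overlapping values: Mt2 and Cebpd, Cebpd and Sgk1, Nr3c1 and Zbtb16, and Fkbp5 and Nr3c2. In the controls 5 pairs did: Tsc22d3 and Mt2, Sgk1 and Nr3c1, Nr3c1 and Cebpd, Cebpd and Zbtb16, and Fkbp5 and Nr3c2.

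The 7 target genes shared their highest CM-RevDKO library, a pattern seen in the data and given without a test. Each of the 7 was highest within its group in CM-RevDKO replicate 1, where 45.4% of all tested genes were. The other two libraries were not ordered alike: Sgk1 and Zbtb16 were lowest in replicate 2 and the other targets in replicate 3. Relative to the control mean, the 7 genes had a median log2 difference of 0.12 in CM-RevDKO replicate 1, -0.42 in replicate 2 and -0.38 in replicate 3. The medians of all tested genes were 0.062, -0.014 and 0.0052. In CM-RevDKO replicate 3 all 7 lay below the control mean, in replicate 2 there were 6 below it and in replicate 1 there were 2. Both receptor genes were highest in CM-RevDKO replicate 3, where 31.9% of all tested genes were, and 2 genes are too few to show a contrast. In the controls no library led: the 7 targets were highest in replicate 1 for 2 genes, in replicate 2 for 3 and in replicate 3 for 2.

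Immediate early and acute phase genes, which respond within minutes to hours to handling, hormones and cytokines, were also high in CM-RevDKO replicate 1. Of 15 tested, 13 were highest within their group in that library, where 45.4% of all tested genes were. Among the controls 10 of the 15 were highest in replicate 2, against 34.8% of all tested genes, and there the 7 targets did not follow. Mt1, Mt2 and Sgk1 were highest of the controls there, but Tsc22d3, Zbtb16 and Cebpd were lowest, and the median log2 difference from the control mean was -0.073 for the 7 targets and 0.25 for the 15 genes. Fos stood at 2.97, 0.244 and 0.948 FPKM in CM-RevDKO replicates 1, 2 and 3 and at 0.622, 2.42 and 0.441 FPKM in control replicates 1, 2 and 3. Between the groups none of the 15 passed the test, with 3 at an unadjusted p under 0.05 and a median log2 fold change of -0.012. The part of these genes, and of the atrial, adipocyte, macrophage and erythroid marker sums that were also highest in CM-RevDKO replicate 1, was not tested. Without that library, which was singled out because the 7 targets were highest in it, 9 of the 9 fold changes were negative, with a median log2 fold change of -0.40. Leaving it out had to lower each of the 7 target fold changes, so this direction was fixed by the choice of library. With each of the other 5 libraries left out 7 or 8 were negative, with medians from -0.43 to -0.26, and 0 of 9 passed the test in any of these fits.

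**Figure D3:**
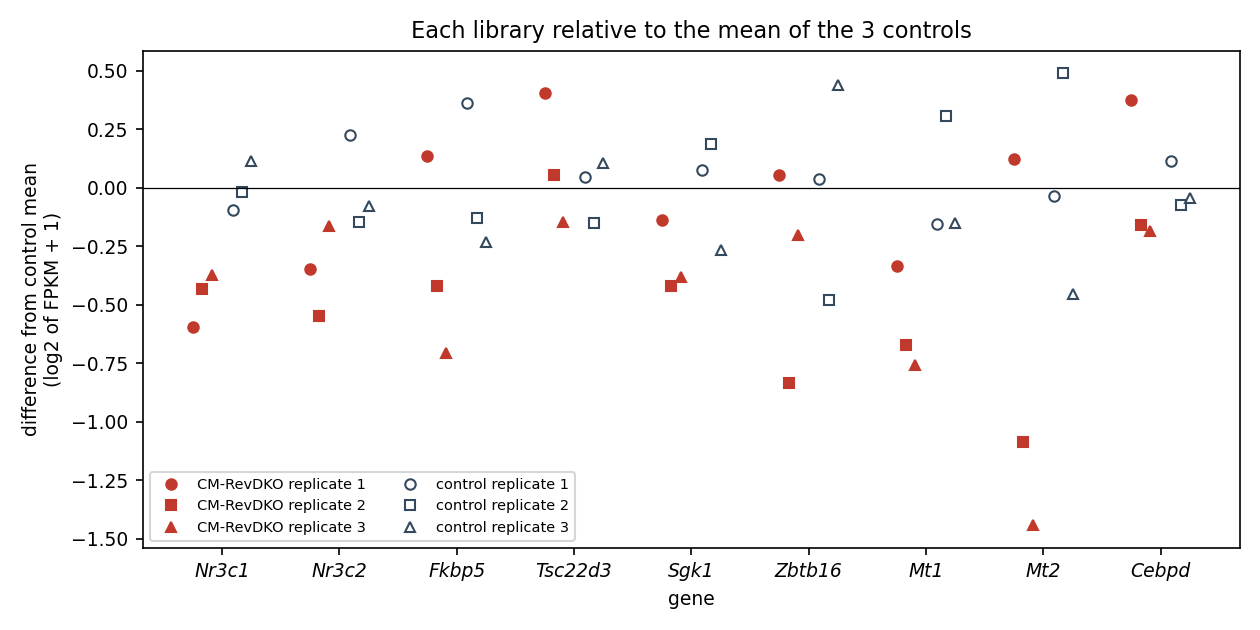
Difference of each library from the mean of the 3 controls, in log2 of FPKM + 1, for the 9 genes, with CM-RevDKO filled and control open. For the 7 target genes CM-RevDKO replicate 1 (filled circle) lies above replicates 2 and 3, and for Nr3c1 it lies below them.

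The supply of active hormone inside cells and the receptor's chaperones were examined next. Hsd11b1, the reductase that regenerates active corticosterone, stood at 12.9, 9.85 and 9.70 FPKM in the CM-RevDKO libraries and 8.05, 10.9 and 8.33 FPKM in the controls (log2 fold change 0.23, SE 0.15, adjusted p = 0.505). H6pd, which supplies it with NADPH, stood at 6.97, 5.68 and 6.32 FPKM, against 7.37, 8.26 and 7.41 FPKM in the controls. The H6pd groups did not overlap, but it did not pass the test (log2 fold change -0.25, adjusted p = 0.303). Hsd11b2, which inactivates the hormone, was not listed under that symbol among the deposited genes, so it was not tested. Of the 5 genes of hormone metabolism and transport that were tested, 0 passed by limma and 0 had an unadjusted p under 0.05.

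Of 12 chaperones and co-chaperones of the receptor complex, 0 passed the test and 1 had an unadjusted p under 0.05, with a median log2 fold change of 0.0094. In 4 of the 12 the groups did not overlap, with Hsp90aa1, Hspa4 and Dnajb1 higher and Fkbp4 lower. Over all tested genes 23.1% did not overlap, 12.6% higher and 10.5% lower. The gene with the small unadjusted p was Fkbp4, which encodes FKBP52, the co-chaperone that opposes FKBP51 and favours nuclear entry. Fkbp4 stood at 111, 88.7 and 116 FPKM in the CM-RevDKO libraries and 131, 148 and 171 FPKM in the controls. Every CM-RevDKO value lay below every control, and the CM-RevDKO mean was 70.0% of the control mean (log2 fold change -0.51, SE 0.14, adjusted p = 0.121). Hsp90aa1, the inducible heat shock protein 90, stood at 23.7, 26.5 and 28.7 FPKM in the CM-RevDKO libraries and 16.7, 23.4 and 23.2 FPKM in the controls (log2 fold change 0.32, SE 0.15, adjusted p = 0.340). Hsp90ab1, the constitutive form, stood at means of 343 ± 4.17 and 338 ± 10.4 FPKM (SD, n = 3 each, adjusted p = 0.923).

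Coregulators that bind the hormone-loaded receptors were lower in 10 of 11 cases by sign, with a median log2 fold change of -0.16, and 0 of 11 passed the test, with 1 at an unadjusted p under 0.05. That gene was Nrip1, the corepressor RIP140, named after its values were seen. Nrip1 stood at 2.57, 1.97 and 2.41 FPKM in the CM-RevDKO libraries and 4.70, 3.27 and 4.01 FPKM in the controls. The groups were separate and the CM-RevDKO mean was 58.0% of the control mean (log2 fold change -0.58, SE 0.14, adjusted p = 0.0937).

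Among 25 further genes known to respond to glucocorticoids in 1 tissue or another, 1 rose and 4 fell, against 1.26% higher and 1.24% lower over all tested genes. Their median log2 fold change was -0.15, and 14 of 25 were negative. The list was chosen with earlier results of these data known, so these shares cannot separate the targets from the choice of genes. Several of the 5 are also regulated by FOXO factors or p53, so they are not specific readouts of the receptors. Cdkn1a, the cell cycle inhibitor p21, stood at 80.9, 85.4 and 71.8 FPKM in the CM-RevDKO libraries and 4.77, 5.67 and 4.19 FPKM in the controls. The gap was wide in every library (log2 fold change 3.78, SE 0.12, adjusted p = 1.72e-05).

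The 4 that fell behaved less alike across settings. Ptgds, prostaglandin D synthase, stood at 53.3, 60.3 and 75.7 FPKM in the CM-RevDKO libraries and 186, 205 and 147 FPKM in the controls, a CM-RevDKO mean of 35.2% of the control mean (log2 fold change -1.50, SE 0.17, adjusted p = 0.00517). Arrdc2, an arrestin-domain protein, stood at 3.51, 2.92 and 2.61 FPKM, against 8.13, 6.39 and 6.002 FPKM in the controls (log2 fold change -0.96, SE 0.14, adjusted p = 0.0170). Arrdc2 lost its call without CM-RevDKO replicate 2 or without control replicate 1 or 2 (adjusted p up to 0.0701), while Ptgds kept its call with each library left out. Sesn1, a stress-induced inhibitor of mTOR signalling, was at 70.5% of the control mean (31.8 ± 1.80 and 45.1 ± 2.88 FPKM, SD, n = 3 each, log2 fold change -0.49, adjusted p = 0.0417). Foxo3, a forkhead factor of atrophy and stress resistance, was at 68.1% (11.5 ± 0.479 and 16.8 ± 1.59 FPKM, SD, n = 3 each, log2 fold change -0.51, adjusted p = 0.0485). Sesn1 and Foxo3 each lost their calls without any of the 6 libraries (adjusted p up to 0.148 and 0.159).

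Better known immediate targets of the receptor did not pass. Per1, a clock gene with a response element of its own, stood at 14.3, 11.6 and 11.4 FPKM in the CM-RevDKO libraries and 17.1, 17.3 and 13.9 FPKM in the controls (log2 fold change -0.35, SE 0.13, adjusted p = 0.239). Klf15, a metabolic Kruppel-like factor of heart and muscle, stood at 14.2, 18.1 and 18.1 FPKM, against 21.5, 21.7 and 22.4 FPKM in the controls. Klf15 was lower without overlap (log2 fold change -0.37, SE 0.11, adjusted p = 0.162).

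Ddit4, a stress-induced inhibitor of mTOR signalling also called REDD1, had the largest positive fold change among the uncalled genes of this list. It stood at 141, 89.6 and 67.7 FPKM in the CM-RevDKO libraries and 45.3, 57.7 and 28.0 FPKM in the controls. The groups were separate, with CM-RevDKO replicate 1 again the highest (log2 fold change 1.16, SE 0.32, adjusted p = 0.124). Klf9 stood at means of 34.1 ± 3.86 and 31.9 ± 5.07 FPKM, and Dusp1, a phosphatase that ends MAP kinase signals, at 25.4 ± 12.2 and 22.6 ± 7.55 FPKM (SD, n = 3 each, adjusted p = 0.786 and 0.906). In all, 17 of the 25 genes were highest within their group in CM-RevDKO replicate 1, where 45.4% of all tested genes were.

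**Figure D4:**
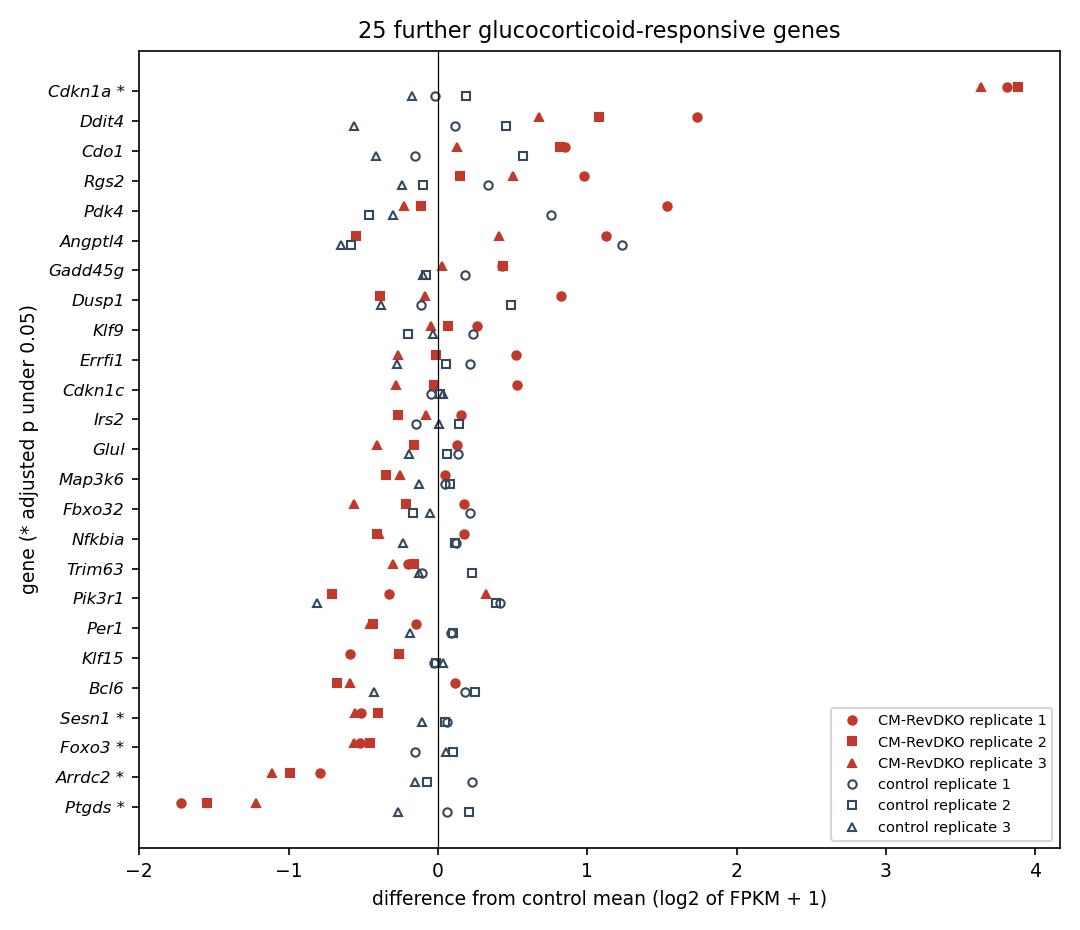
Difference of each library from the mean of the 3 controls, in log2 of FPKM + 1, for 25 further glucocorticoid-responsive genes, with CM-RevDKO filled and control open, ordered by fold change. Asterisks mark the 5 genes past the test: Cdkn1a to the right, and Sesn1, Foxo3, Arrdc2 and Ptgds to the left.

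Of 15 tested genes that respond to aldosterone or the mineralocorticoid receptor, 0 passed by limma and 1 had an unadjusted p under 0.05, with a median log2 fold change of -0.019. That gene was Usp2, a deubiquitinase that the clock also drives, at 37.5 ± 0.531 FPKM in the CM-RevDKO libraries and 45.1 ± 1.75 FPKM in the controls (SD, n = 3 each, log2 fold change -0.26, adjusted p = 0.165). The connective tissue growth factor gene Ctgf, a fibrosis-associated target, stood at 23.7 ± 7.70 and 23.6 ± 7.04 FPKM (SD, n = 3 each, adjusted p = 0.999). Over all 94 genes of the 8 pathway lists that were tested, 2 rose and 4 fell, and the median log2 fold change was -0.0092.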

How the data were processed

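RNA from 6 heart libraries was analysed; the other 24 samples of the series were not analysed here. The authors deposited 1 value per gene and library, with HISAT2, StringTie and mm10 named in the submitters' processing notes; no version, annotation or strand setting is stated there. These deposited numbers were taken to be FPKM; the header names no unit, and TPM cannot be told apart. Depth is unknown, so no counting interval is given. Genes with a mean of at least 0.5 were fitted as log2(FPKM + 1) with limma 3.58.1 in R 4.3.3 (lmFit, eBayes with intensity trend, group as the only term), two-sided, with Benjamini-Hochberg adjustment over all 13256 genes and a threshold of 0.05. The procedure was tested on simulated data. Sequences and coordinates come from RefSeq tables of GRCm38.p6, which is mm10; motifs were counted with Python 3.11.15.

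The members and lists were chosen with earlier results of these data known. Named genes are the 9 members, 13 listed pathway genes that were in the table, up to 4 further genes past the test from each of 8 lists, and the 3 genes most like Nr3c1, which was also the member with the smallest p. Nrip1, Foxo3, Fos, Usp2 and the other genes named in lists fall outside this rule and were picked with their values known. Over all tested genes, same-numbered libraries did not vary together (correlations of deviations from the group means of -0.037, -0.064 and 0.093). Numbers were therefore not used as pairs, though single genes can differ from this. The 16 alternatives covered pseudocount, filter, scaling, trend, a replicate term and left-out libraries.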

Additional observations from a re-analysis of the deposited data

How the results depend on the processing

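None of the 9 genes passed the test under any of the 16 alternatives, and Nr3c1, Nr3c2, Fkbp5, Sgk1, Zbtb16, Mt1 and Mt2 kept their negative sign in each that gave a value. The sign of Cebpd turned with median-ratio scaling (-0.011), scaling without mitochondrially encoded genes (-0.054) and quantile normalization (-0.017), and with CM-RevDKO replicate 3 alone against the controls (-0.18); with single libraries left out it ran from -0.17 to 0.11. Tsc22d3 turned with CM-RevDKO replicate 3 alone (-0.15) and ran from -0.046 to 0.23 with single libraries left out. Hsp90ab1 turned with the same 3 scalings (-0.0023, -0.048 and -0.082). With CM-RevDKO replicate 3 alone, Dusp1 (-0.088), Klf9 (-0.048) and Slc30a1 (-0.040) turned too, and with single libraries left out Dusp1 ran from -0.24 to 0.37 and Klf9 from -0.0059 to 0.21. The causes were not tested.

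Over all genes, 332 calls became 114 to 323 with single libraries left out, and 28 with CM-RevDKO replicate 3 alone, a single library assumed to vary like the controls. With the replicate block the count was 115. Same-numbered samples share only a number, and none of the 9 genes passed with it (Nr3c1 adjusted p = 0.112). At an unadjusted p under 0.05 by limma there were 4 of the 9 with the block and 3 without it. Fkbp5 had an unadjusted p of 0.026 with the block and 0.212 without it (adjusted p = 0.247 and 0.546). Scaled without mitochondrially encoded genes, 118 were higher and 212 lower, against 167 and 165. The 6 calls among the pathway genes became 3 to 4 with single libraries left out and 2 with CM-RevDKO replicate 3 alone. Depth is unknown, and with 3 libraries a group the smallest p of an exact permutation test is 0.1.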
